A study of Mus musculus with 8 samples.

Results

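The genes described here are 32 mouse genes that take up glucose, break it down to pyruvate and lactate, and export the lactate. They were chosen by gene symbol, with no measured value in the rule, although earlier results of these data were known when the list was made. Of the 32 symbols, 30 had a transcript cluster of their own, among 21160 genes that did. Eno1 shared its cluster with Eno1b, and Pfkfb2 shared its cluster with C4bp-ps1, so both were kept apart from the counts. Pgam2 and Eno2 lay below the limit for testing, a mean log2 value of 4.8918 over the arrays, which left 28 of 12696 tested genes.

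The arrays measured CD8+ T cells of female mice, the lymphocytes that kill infected cells. Naive cells were stimulated in vitro and cultured for 48 h, to day 2, with an agonist of PPARα, of PPARβ or of PPARγ, or with the solvent DMSO. Each of these 4 treatments had 2 arrays, 8 in all, and neither the compounds nor their doses are stated in the labels. Sample titles carry 1 of 2 prefixes, each shared by 1 array of every treatment, and the 4 arrays of a prefix are called a set. All cells share the in vitro stimulation, no unstimulated cells are among the samples, and the labels do not say what a prefix marks or whether animals were pooled.

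Glycolysis splits glucose into pyruvate and yields ATP without oxygen. Naive T cells use little of it, and after activation they raise glucose transporters, hexokinase and lactate dehydrogenase and release lactate while they grow and divide. MYC and HIF-1 are transcription factors that switch on many of these genes in activated T cells. PPARs are nuclear receptors that bind fatty acids and pair with RXR on DNA, and they are best known for switching on genes of fatty acid oxidation and storage.

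Markers of CD8 T cells were high on all arrays. In this list, 6 of 7 genes had a cluster of their own, with log2 values of 13.73 to 17.28, and their summed level (log2 of the sum) was 18.77 to 18.90 in set 1 and 18.91 to 18.95 in set 2. Cd4 reached 8.31 to 9.15 in set 1 and 7.46 to 8.40 in set 2, a difference of 0.82 (limma adjusted p = 0.0162). Of the B cell markers 1 of 4 passed the limit, Cd79b, at 9.13 to 9.94 over the 8 arrays. The defining B cell genes Cd79a and Ms4a1 lay below the limit, as did all NK and dendritic cell markers, both erythroid markers with their own cluster, 4 of 5 myeloid and 2 of 3 neutrophil markers. The part of other cells in the differences below was not tested. In bulk RNA, fewer cells that carry a transcript and less of it per cell cannot be told apart.

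None of the 28 tested genes of the pathway passed the test with any agonist. In limma's fit of the 4 treatments, 0 of 28 passed an adjusted p of 0.05 for the PPARα, PPARβ or PPARγ agonist against DMSO, where 0.0%, 0.00788% and 0.0% of all tested genes passed. The smallest adjusted p among the 28 was 1 in each comparison. At an unadjusted p under 0.05 the count was also 0, against 1.77%, 2.35% and 2.17% of all tested genes. With the set as a replicate block, which takes the difference between the sets out of the spread, again 0 of 28 passed, beside 0.0%, 0.0236% and 0.0% of all tested genes, and the smallest limma adjusted p was 0.986, 0.797 and 0.822. At an unadjusted p under 0.05 the blocked fit held 0, 2 (Aldoc and Slc16a3) and 0 of the 28, where 4.86%, 6.13% and 5.84% of all tested genes reached it. Nothing in the labels says that the arrays of a treatment hold separate mice or cultures. The p-values therefore reflect the spread of these arrays alone, and that spread may be technical.

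With the PPARβ agonist most pathway genes lay slightly above DMSO, and mainly in 1 of the 2 sets. Its mean difference from DMSO was above 0 for 24 of 28 pathway genes, with a median of 0.11, while 47.5% of all tested genes lay above 0, with a median of -0.011. In set 1 the difference was above 0 for 25 of 28 genes with a median of 0.20, beside 53.0% of all tested genes, and in set 2 for 14 of 28 with a median of -0.0010, beside 43.9%. Above 0 in both sets were 13 genes, where 23.7% of all tested genes were. For the PPARα agonist 16 of 28 lay above 0, with a median of 0.032 beside 45.8% and -0.018 over all tested genes, and 6 were above 0 in both sets beside 23.3%. For the PPARγ agonist 13 of 28 lay above 0, with a median of -0.0048 beside 47.8% and -0.011, and 6 were above 0 in both sets beside 24.5%. The 3 comparisons share the DMSO arrays, so their counts are not independent.

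**Figure D1:**
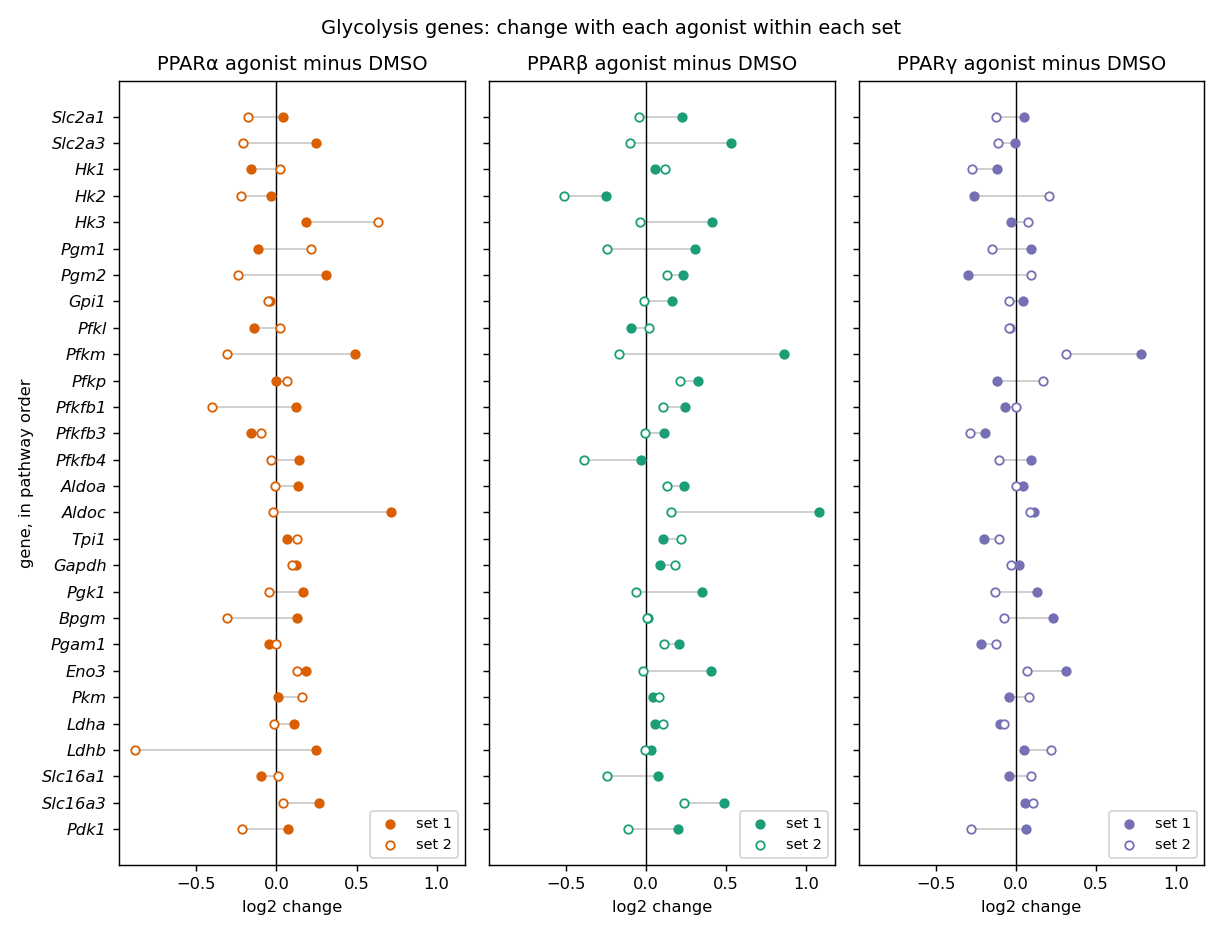
Log2 difference of each pathway gene between an agonist and DMSO within a set (x axis), with genes in pathway order (y axis) and a panel per agonist. Filled points are set 1 and open points set 2, joined by a line. In the PPARβ panel 25 of 28 filled points lie right of 0 and 14 of 28 open points do. Aldoc has the filled point farthest right, at 1.08.

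Of the 28 genes, 1 differed from DMSO by 0.3 or more the same way in both sets with any agonist, while 4.79%, 5.47% and 5.27% of all tested genes did with the PPARα, PPARβ and PPARγ agonists. It was Pfkm, the muscle-type phosphofructokinase subunit, with the PPARγ agonist, at 0.78 in set 1 and 0.31 in set 2. Its mean difference was 0.55 (-0.016 to 1.11, 95% interval; limma adjusted p = 0.822, both with the replicate block). The DMSO array of set 1 read 8.18, the lowest of the 8 Pfkm values, and all 3 agonists stood above it. Between-treatment groups that did not overlap, in which both agonist arrays lay on one side of both DMSO arrays, were found for 3 higher genes (Hk3, Gapdh and Eno3) and 1 lower gene (Pfkfb3) with the PPARα agonist, where 11.0% and 13.0% of all tested genes were so placed. For the PPARβ agonist there were 4 higher (Pfkfb1, Gapdh, Pgam1 and Ldha) and 2 lower (Hk2 and Pfkfb4), beside 10.9% and 12.8%. For the PPARγ agonist there were 1 higher (Eno3) and 2 lower (Pfkfb3 and Ldha), beside 11.8% and 12.2%.

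Between the sets, pathway genes did pass the test. Of the 28 tested genes, 13 were lower in set 1 than in set 2 at a limma adjusted p under 0.05 and 0 were higher, in a fit with the treatment as a term. Of all tested genes 7.25% were lower and 9.74% higher by that test. The test was passed by 17.0% of all tested genes in either direction. At an unadjusted p under 0.05 the count was 16, of which 1 was higher in set 1, beside 32.7% of all tested genes. Each set is 1 title prefix, and its arrays, each of a different treatment, served as its replicates. The p-values of every set comparison here reflect the spread of these arrays within the sets, not the spread between prefixes. Whether the set differences would recur with other prefixes was not tested. The sets did not overlap in 14 genes that were lower in set 1, beside 11.7% of all tested genes, and in 1 that was higher, beside 13.4%. The median difference of the 28 was -0.36, beside -0.0034 over all tested genes. In 15 genes set 1 was lower in every treatment, beside 19.4% of all tested genes, and in 3, Slc16a1, Pfkfb3 and Eno3, it was higher in every treatment, beside 20.6%. Of the summed variance of the 28 genes, the set held 80.6%, the treatment 9.75% and the rest 9.65%, while over all tested genes these shares were 45.5%, 28.6% and 25.9%. Without Aldoc, the gene that varied most, the shares of the other 27 were 73.8%, 12.9% and 13.4%.

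**Figure D2:**
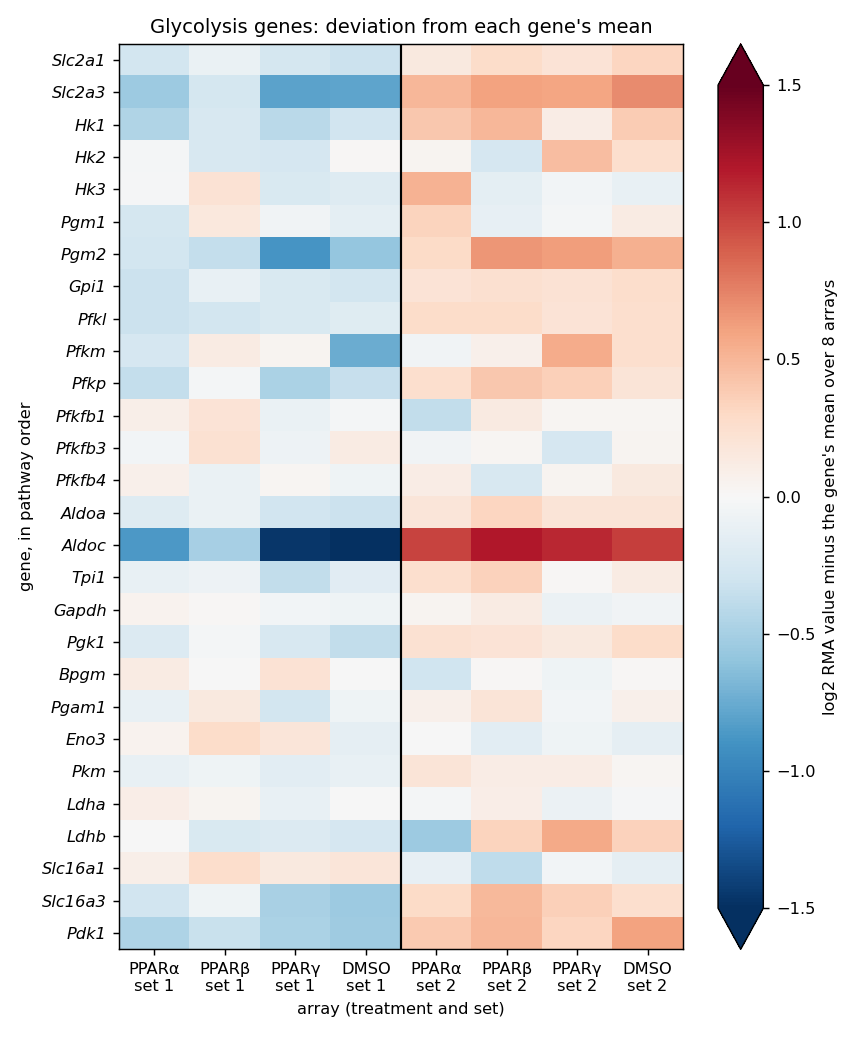
Log2 RMA value of each pathway gene minus its mean over the 8 arrays (colour), with genes in pathway order (rows) and arrays by treatment and set (columns). The 4 arrays left of the line are set 1 and the 4 on its right are set 2. Aldoc, Slc2a3, Pgm2 and Pdk1 show the strongest split at the line, and Gapdh and Ldha stay near 0 on every array.

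Both glucose transporters were lower in set 1, where 7.25% of all tested genes passed as lower. For the PPARα, PPARβ and PPARγ agonists and DMSO, Slc2a1 (chr4:119108711-119137330 on mm10), which encodes the GLUT1 transporter of most growing cells, had log2 values of 14.95, 15.13, 14.95 and 14.90 in set 1, against 15.37, 15.50, 15.42 and 15.55 in set 2. The groups did not overlap, and the set difference was -0.48 (SE 0.0971, limma adjusted p = 0.0178). In the same order of treatments Slc2a3 (chr6:122727809-122801640), which encodes the high-affinity transporter GLUT3, had 13.02, 13.30, 12.76 and 12.77 in set 1, against 14.06, 14.16, 14.15 and 14.27 in set 2. Every set 1 array lay below every set 2 array. The difference was -1.20 (SE 0.131, limma adjusted p = 0.00294), so that set 1 held 0.435 times the set 2 level. With the PPARβ agonist Slc2a3 differed from DMSO by 0.53 in set 1 and -0.10 in set 2, and Slc2a1 by 0.22 in set 1 and -0.047 in set 2. The blocked 95% interval for the mean difference of Slc2a1 ran -0.39 to 0.26 with the PPARα agonist, -0.23 to 0.41 with PPARβ and -0.36 to 0.29 with PPARγ.

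Hexokinases trap glucose in the cell as glucose 6-phosphate. Of the 3 measured, 1 passed as lower in set 1, beside 7.25% of all tested genes. Hk1 (chr10:62268855-62379908), the isoform of most tissues, had 13.27, 13.49, 13.31 and 13.43 in set 1, against 14.12, 14.22, 13.83 and 14.10 in set 2 for the PPARα, PPARβ and PPARγ agonists and DMSO, without overlap and with a set difference of -0.69 (SE 0.1, limma adjusted p = 0.00616). Hk2 (chr6:82725025-82774454), the isoform that activation raises in T cells, had 11.23, 11.02, 11.01 and 11.27 in set 1, against 11.29, 11.00, 11.72 and 11.51 in set 2 in that order of treatments. Its sets overlapped, at -0.25 (SE 0.138, limma adjusted p = 0.258). Both PPARβ arrays of Hk2, at 11.02 and 11.00, lay under both DMSO arrays, at 11.27 and 11.51, a mean difference of -0.38 with a blocked 95% interval of -0.84 to 0.076 and a blocked limma adjusted p of 0.889. Hk3 (chr13:55005985-55021385), an isoform typical of myeloid cells, stayed between 6.68 and 7.43 on the 8 arrays. Its PPARα arrays read 6.89 and 7.43 and its DMSO arrays 6.71 and 6.80, the largest mean difference of that agonist in the pathway at 0.41 (limma adjusted p = 0.986 with the replicate block).

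Enzymes that interconvert the hexose phosphates were lower in set 1 in 2 of 3 cases, beside 7.25% of all tested genes. Gpi1 (chr7:34201327-34230336), glucose 6-phosphate isomerase, averaged 17.15 ± 0.089 in set 1 and 17.61 ± 0.025 in set 2 (SD, n = 4 arrays each, 1 per treatment), with a difference of -0.46 (SE 0.0935, limma adjusted p = 0.0171) and no overlap. The cluster that the array names Pgm2 (chr4:99929414-99987294) is the gene RefSeq lists as Pgm1, a phosphoglucomutase that links glycolysis to glycogen. It had 11.75, 11.67, 11.14 and 11.44 in set 1, against 12.31, 12.68, 12.65 and 12.56 in set 2 for the PPARα, PPARβ and PPARγ agonists and DMSO, a set difference of -1.05 (SE 0.154, limma adjusted p = 0.00642). The groups were apart, and the gap within treatments was -0.56 within the PPARα agonist, -1.01 within the PPARβ agonist, -1.51 within the PPARγ agonist and -1.12 within DMSO. The cluster that the array names Pgm1 (chr5:64092936-64128355), listed by RefSeq as Pgm2, ranged over 9.41 to 9.83 in set 1 and 9.55 to 10.01 in set 2, with overlapping sets and a difference of -0.16 (SE 0.15, limma adjusted p = 0.514).

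Phosphofructokinase commits the sugar to glycolysis, and 2 of its 3 subunit genes were lower in set 1, beside 7.25% of all tested genes. Pfkl (chr10:77984993-78010083), the liver-type subunit, spanned 12.95 to 13.09 in set 1 and 13.48 to 13.55 in set 2, with a difference of -0.51 (SE 0.0935, limma adjusted p = 0.0127). Pfkp (chr13:6579768-6648777), the platelet-type subunit, spanned 14.98 to 15.43 in set 1 and 15.64 to 15.85 in set 2, with a difference of -0.60 (SE 0.105, limma adjusted p = 0.0109). Neither gene's sets overlapped. Pfkm (chr15:98092589-98132451) had 8.67, 9.04, 8.96 and 8.18 in set 1, against 8.86, 9.0, 9.48 and 9.17 in set 2 for the PPARα, PPARβ and PPARγ agonists and DMSO, and its sets overlapped, at -0.42 (SE 0.169, limma adjusted p = 0.136). With the PPARβ agonist Pfkp differed from DMSO by 0.33 in set 1 and 0.21 in set 2, and Pfkl by -0.092 in set 1 and 0.020 in set 2.

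Genes of the bifunctional enzymes that make and remove the fructose bisphosphate that activates phosphofructokinase did not pass between the sets in any of the 3 measured cases. Pfkfb3 (chr2:11471430-11553929), the isoform of dividing cells, had 10.90, 11.17, 10.87 and 11.06 in set 1, against 10.88, 10.98, 10.70 and 10.98 in set 2 for the PPARα, PPARβ and PPARγ agonists and DMSO. Its sets overlapped, at 0.12 (SE 0.0936, limma adjusted p = 0.443). Both PPARγ arrays of Pfkfb3, at 10.87 and 10.70, lay below both DMSO arrays, at 11.06 and 10.98, and the mean difference was -0.24 (-0.55 to 0.070, blocked 95% interval; blocked limma adjusted p = 0.832). Pfkfb1 ranged over 9.14 to 9.45 in set 1 and 8.87 to 9.38 in set 2, and Pfkfb4 over 6.50 to 6.67 in set 1 and 6.37 to 6.75 in set 2, both with overlapping sets (limma adjusted p = 0.687 and 0.841). The cluster shared by Pfkfb2 and C4bp-ps1 ranged over 8.45 to 9.10 in set 1 and 8.53 to 9.26 in set 2, a difference of -0.16 (SE 0.19, limma adjusted p = 0.603).

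All 3 genes of the aldolase and triose phosphate step were lower in set 1, beside 7.25% of all tested genes. Aldoc (chr11:78322968-78327781), aldolase C, best known from brain, had the widest gap of the pathway. It had 12.26, 12.62, 11.65 and 11.54 in set 1, against 14.13, 14.31, 14.24 and 14.15 in set 2 for the PPARα, PPARβ and PPARγ agonists and DMSO. Its means were 12.02 ± 0.51 in set 1 and 14.21 ± 0.083 in set 2 (SD, n = 4 arrays each, 1 per treatment). Set 1 held 0.219 times the set 2 level, a difference of -2.19 (SE 0.178, limma adjusted p = 0.00123), with -1.87 within the PPARα agonist, -1.69 within the PPARβ agonist, -2.59 within the PPARγ agonist and -2.62 within DMSO. The spread within set 1 was the wider one, and there the PPARβ array was highest and the DMSO array lowest. The PPARβ agonist minus DMSO was 1.08 in set 1 and 0.16 in set 2, a mean of 0.62 (0.027 to 1.21, blocked 95% interval; blocked limma adjusted p = 0.797), and the PPARα agonist minus DMSO was 0.72 in set 1 and -0.024 in set 2. Aldoa (chr7:126795234-126800751), the main aldolase of muscle and most cells, had 16.76, 16.85, 16.66 and 16.62 in set 1, against 17.14, 17.27, 17.14 and 17.14 in set 2 in that order of treatments, with a difference of -0.45 (SE 0.0919, limma adjusted p = 0.0182). Tpi1 (chr6:124810586-124814296), triose phosphate isomerase, spanned 15.52 to 15.82 in set 1 and 15.91 to 16.23 in set 2, with a difference of -0.37 (SE 0.0909, limma adjusted p = 0.0349) and sets that did not overlap.

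**Figure D3:**
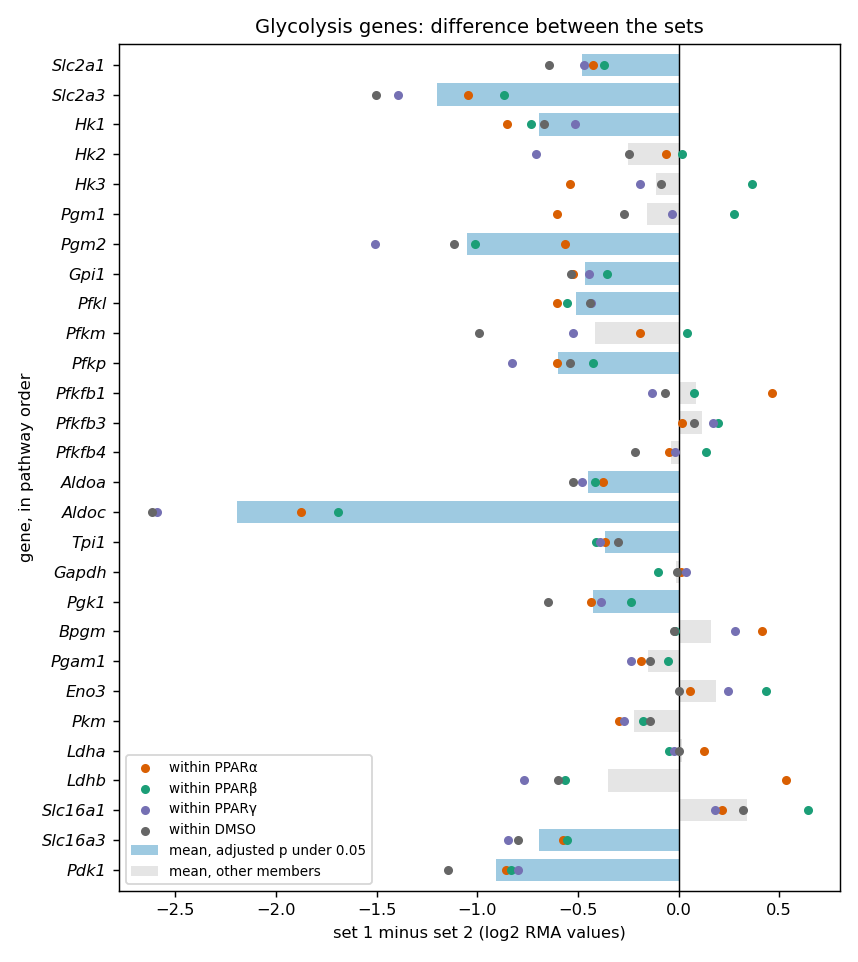
Set 1 minus set 2 in log2 RMA values (x axis) for each pathway gene in pathway order (y axis). Bars are the mean over 4 treatments, blue where the limma adjusted p is under 0.05, and points are the difference within each treatment. Blue bars run from -0.37 for Tpi1 to -2.19 for Aldoc, and Slc16a1 has the longest bar above 0, at 0.34.

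From the 3-carbon sugars to pyruvate, 1 of 6 tested genes passed, as lower in set 1. Of all tested genes 7.25% passed as lower and 17.0% in either direction, so 1 of 6 is near the share over the array. Pgk1 (chrX:106187100-106203699), the phosphoglycerate kinase that makes ATP, spanned 16.09 to 16.44 in set 1 and 16.61 to 16.74 in set 2, with no overlap and a difference of -0.43 (SE 0.105, limma adjusted p = 0.034). Gapdh (chr6:125161852-125166467), the dehydrogenase ahead of it and a common reference gene, had 18.23, 18.20, 18.13 and 18.11 in set 1, against 18.22, 18.30, 18.09 and 18.12 in set 2 for the PPARα, PPARβ and PPARγ agonists and DMSO. Its sets overlapped and differed by -0.015 (SE 0.0918, limma adjusted p = 0.93). Pkm (chr9:59656368-59679375), pyruvate kinase, had 17.42, 17.46, 17.38 and 17.42 in set 1, against 17.72, 17.64, 17.64 and 17.56 in set 2 in the same order, and all set 1 arrays lay under all set 2 arrays, although the difference of -0.22 (SE 0.0926, limma adjusted p = 0.145) missed the threshold, which it passed with the trend and robust variances (0.00168). Pgam1, phosphoglycerate mutase, spanned 14.06 to 14.48 in set 1 and 14.29 to 14.53 in set 2, at -0.15 (SE 0.093, limma adjusted p = 0.299). Bpgm, which makes the haemoglobin ligand bisphosphoglycerate in red cells, differed by 0.16, and the enolase Eno3 by 0.19, with limma adjusted p-values of 0.369 and 0.288. The cluster of Eno1 and Eno1b, the main enolase, spanned 17.80 to 17.90 in set 1 and 17.92 to 18.03 in set 2, at -0.11 (SE 0.0922, limma adjusted p = 0.462). Pgam2 lay at 4.51 to 5.03 and the neuronal enolase Eno2 at 3.78 to 4.52 over the 8 arrays.

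Lactate dehydrogenase genes did not pass between the sets over all 8 arrays, and Ldhb passed once the PPARα arrays were out of the comparison. Ldha (chr7:46841475-46855627), whose enzyme turns pyruvate into lactate, had 17.64, 17.59, 17.43 and 17.53 in set 1, against 17.51, 17.64, 17.45 and 17.53 in set 2 for the PPARα, PPARβ and PPARγ agonists and DMSO, a set difference of 0.015 (SE 0.0929, limma adjusted p = 0.931). Its 8 values overlapped between sets. Ldhb (chr6:142490249-142507957), the heart-type subunit, had 6.55, 6.33, 6.35 and 6.30 in set 1, against 6.01, 6.89, 7.12 and 6.90 in set 2 in that order. Ldhb read lowest, 6.01, on the PPARα array of set 2, and the PPARα agonist minus DMSO was 0.25 in set 1 and -0.88 in set 2. Its set difference was -0.35 (SE 0.211, limma adjusted p = 0.3). Without a PPARα array, the Ldhb difference was -0.64 (limma adjusted p = 0.0332), and in the other fits without 1 array it differed by -0.28 to -0.21 (limma adjusted p = 0.518 to 0.612). Ldha, Gapdh, Pkm and the Eno1 cluster read 17.38 to 18.30, near the array maxima of 19.01 to 19.16, and Gpi1, which passed, read 17.07 to 17.64. Whether the height of the signal bears on these differences was not tested.

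Of the 2 lactate exporter genes 1 was lower in set 1, beside 7.25% of all tested genes. Slc16a3 (chr11:120948480-120960868), which encodes MCT4, the exporter of strongly glycolytic cells, had 13.71, 13.93, 13.51 and 13.45 in set 1, against 14.29, 14.49, 14.35 and 14.25 in set 2 for the PPARα, PPARβ and PPARγ agonists and DMSO. No arrays overlapped between the sets, and the difference was -0.69 (SE 0.102, limma adjusted p = 0.00642). Slc16a1 (chr3:104638664-104658462), which encodes the carrier MCT1 that moves lactate either way, had 13.26, 13.43, 13.32 and 13.36 in set 1, against 13.04, 12.79, 13.13 and 13.04 in set 2 in that order, so that set 1 was above set 2 on every array, at 0.34 (SE 0.112, limma adjusted p = 0.0808). It passed under 3 alternatives, with limma adjusted p-values of 0.0362 when only genes above a mean of 7.1696 were tested, 0.0365 with no treatment term and 0.00621 with an intensity trend and robust variances. With the PPARβ agonist Slc16a3 differed from DMSO by 0.48 in set 1 and 0.24 in set 2, a mean of 0.36 (0.022 to 0.70, blocked 95% interval; blocked limma adjusted p = 0.797), and the PPARβ array was the highest of each set.

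Pdk1 (chr2:71873224-71903858), a kinase that holds pyruvate dehydrogenase off and so keeps pyruvate from oxidation in mitochondria, was lower in set 1. Its values were 14.26, 14.38, 14.25 and 14.18 in set 1, against 15.11, 15.22, 15.04 and 15.33 in set 2 for the PPARα, PPARβ and PPARγ agonists and DMSO. The sets lay well apart, with means of 14.27 ± 0.083 in set 1 and 15.18 ± 0.12 in set 2 (SD, n = 4 arrays each, 1 per treatment). Set 1 held 0.533 times the set 2 level, a difference of -0.91 (SE 0.103, limma adjusted p = 0.00322). Against DMSO, Pdk1 differed by 0.073 in set 1 and -0.21 in set 2 with the PPARα agonist. The same difference was 0.20 in set 1 and -0.11 in set 2 with the PPARβ agonist. With PPARγ it was 0.065 in set 1 and -0.28 in set 2. These signs were opposite in the sets for all 3 agonists, and the DMSO array was the lowest of set 1 and the highest of set 2.

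**Figure D4:**
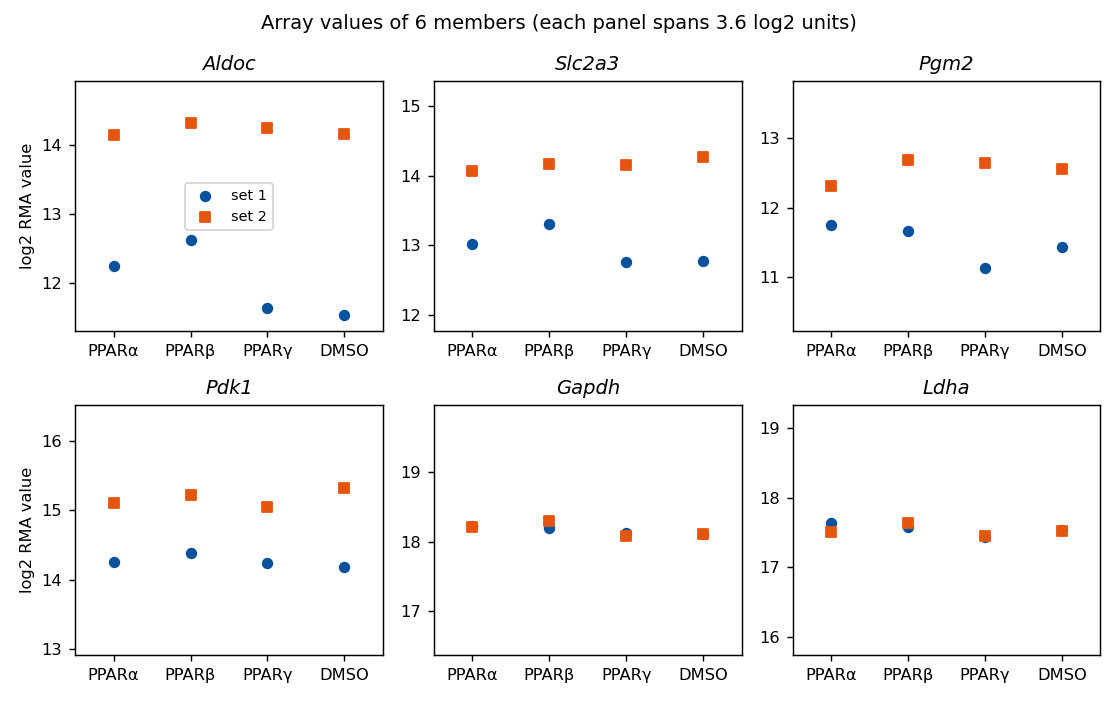
Log2 RMA values (y axis) of 6 pathway genes on each array, by treatment (x axis), with set 1 as circles and set 2 as squares. Every panel spans the same height. In the panels of Aldoc, Slc2a3, Pgm2 and Pdk1 all circles lie below all squares, and in those of Gapdh and Ldha they overlap.

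Part of the set calls was lost when an array was left out. Over all tested genes the calls also fell, from 2156 to between 1053 and 1328. Leaving out an array also removes its treatment from the set comparison, so both arrays of a treatment give the same value. Without a DMSO, PPARα or PPARγ array 8 of the 28 genes passed, and without a PPARβ array 10 did. The 8 without a PPARα array were 7 of the 13 and Ldhb, a gained call. Aldoc, Slc2a3, Pdk1, Hk1, Pgm2, Slc16a3 and Pfkp passed in all 8 such fits, with limma adjusted p-values up to 0.0476. Pfkl passed in 6, and missed without a PPARα array (limma adjusted p = 0.06). Gpi1 and Slc2a1 passed in 2, those without a PPARβ array, and reached 0.0733 and 0.0752 elsewhere. Aldoa, Pgk1 and Tpi1 passed in none, with limma adjusted p-values of 0.0536 to 0.0745, 0.0528 to 0.125 and 0.0884 to 0.107. All 13 differences stayed below 0. Those of Aldoa, Pgk1 and Tpi1 ran from -0.473 to -0.425, -0.489 to -0.352 and -0.388 to -0.351. With all arrays they were -0.449, -0.426 and -0.366. What the smaller number of arrays did to these calls was not tested.

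Between agonists, 0 of 28 pathway genes passed in any of the 3 comparisons. For the PPARβ against the PPARα agonist, the PPARβ against the PPARγ agonist and the PPARγ against the PPARα agonist, 0.00788%, 0.00788% and 0.0% of all tested genes passed limma's adjusted p of 0.05. At an unadjusted p under 0.05 the pathway count was 0 in each, beside 2.32%, 2.65% and 2.01%. With the replicate block 0 passed the adjusted p, beside 0.0158%, 0.0158% and 0.0%, and the smallest limma adjusted p was 0.893, 0.697 and 0.886. The blocked count at an unadjusted p under 0.05 was 0, 2 and 0, beside 5.91%, 7.07% and 5.69%. The PPARβ agonist stood above the PPARα agonist in 22 of 28 genes (median 0.11, beside 51.9% and 0.0089 over all tested genes) and above the PPARγ agonist in 22 of 28 (median 0.15, beside 49.6% and -0.0017). Both sets had their median above 0 here. Against the PPARα agonist 21 genes lay above 0 in set 1 (median 0.18, beside 53.0% of all tested genes) and 19 in set 2 (median 0.099, beside 49.6%). Against the PPARγ agonist 24 lay above 0 in set 1 (median 0.17, beside 47.5%) and 19 in set 2 (median 0.067, beside 52.0%). Both sets were above 0 in 14 and 17 genes, beside 27.1% and 25.4% of all tested genes. The PPARγ agonist stood above the PPARα agonist in 10 of 28, with a median of -0.059, beside 51.1% and 0.0049, and both sets were above 0 in 5, beside 26.0%.

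The 2 genes behind the count of the blocked fit were Pgam1 and Tpi1, both between the PPARβ and PPARγ agonists. Pgam1 read 14.48 and 14.53 with the PPARβ agonist, against 14.06 and 14.29 with the PPARγ agonist, a mean difference of 0.33 (limma adjusted p = 0.697 with the replicate block). Tpi1 read 15.82 and 16.23 with the PPARβ agonist, against 15.52 and 15.91 with the PPARγ agonist, 0.30 in set 1 and 0.32 in set 2, and was the only pathway gene with 0.3 or more the same way in both sets between agonists. For the PPARβ against the PPARα agonist, the PPARβ against the PPARγ agonist and the PPARγ against the PPARα agonist 5.55%, 5.51% and 5.15% of all tested genes differed by that much. Aldoc had the largest mean difference between these agonists, 0.52, of which set 1 gave 0.97 and set 2 0.069. For the PPARβ against the PPARα agonist Pfkfb1 differed by 0.12 in set 1 and 0.51 in set 2, and for the PPARγ against the PPARα agonist Pfkm differed by 0.29 in set 1 and 0.62 in set 2 and Hk3 by -0.22 in set 1 and -0.56 in set 2. Pfkfb1, Pfkm and Hk3 had limma adjusted p-values of 0.897, 0.886 and 0.892 with the replicate block.

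Since pathway genes differed together between the sets, their promoters were searched for the letters that the regulators named above bind. The 250 bases before the RefSeq start nearest to the cluster (build GRCm38.p6) were found for 31 of the 32 genes. The missing one was Slc2a3, a gene lower in set 1. The letters ACGTG, on either strand, are the core shared by HIF-1 elements and E boxes, and 12 of 31 promoters (38.7%) held them, beside 16.6% of all 32851 promoters. Among the genes lower in set 1 it was 4 of 12 (33.3%), and among the others 8 of 19 (42.1%). These 19 include Pgam2 and Eno2, which were not tested, and Eno1 and Pfkfb2, which share a cluster. The full E box CACGTG, which MYC binds and which contains ACGTG on both strands, stood in 3 of 31 (9.68%) beside 6.02% of all promoters, and in 0 of the 12. The consensus direct repeat of PPAR elements, called DR1 for its spacer, stood in 0 of 31, beside 0.0335%. The share over all promoters counts every listed start, while each of the 31 genes gave 1. GC content, which ranged from 36.4% to 76.4% among the 31, was not matched. A match is a run of letters and not a measured binding site. Only these exact letters were searched, so a promoter without a match may hold other forms of the elements.

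The promoters of 3 of the 4 genes lower in set 1 with ACGTG are shown, without that of Pgk1. That of Ldha, which did not differ beyond its error and had the most matches, is shown too. Aldoc is added, which had the widest difference and no match to these exact letters. All read 5′ to 3′ toward the start, and capitals mark ACGTG or its complement CACGT.
Slc2a1, chr4:119108495-119108744, plus strand: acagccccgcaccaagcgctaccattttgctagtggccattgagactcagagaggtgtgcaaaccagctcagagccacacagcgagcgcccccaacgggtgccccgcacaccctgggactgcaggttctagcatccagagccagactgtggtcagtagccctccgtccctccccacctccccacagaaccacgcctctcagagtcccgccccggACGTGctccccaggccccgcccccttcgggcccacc
Pgm2, chr4:99929201-99929450, plus strand: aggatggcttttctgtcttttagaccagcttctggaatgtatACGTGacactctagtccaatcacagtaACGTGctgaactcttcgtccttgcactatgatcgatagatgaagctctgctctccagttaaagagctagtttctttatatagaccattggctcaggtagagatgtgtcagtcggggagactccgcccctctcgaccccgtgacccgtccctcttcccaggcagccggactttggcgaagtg
Slc16a3, chr11:120948817-120949066, plus strand: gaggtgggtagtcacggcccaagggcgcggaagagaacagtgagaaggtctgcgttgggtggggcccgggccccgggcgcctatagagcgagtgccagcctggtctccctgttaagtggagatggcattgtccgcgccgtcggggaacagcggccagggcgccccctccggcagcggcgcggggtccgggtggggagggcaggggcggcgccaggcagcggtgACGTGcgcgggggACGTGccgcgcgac
Ldha, chr7:46845554-46845803, plus strand: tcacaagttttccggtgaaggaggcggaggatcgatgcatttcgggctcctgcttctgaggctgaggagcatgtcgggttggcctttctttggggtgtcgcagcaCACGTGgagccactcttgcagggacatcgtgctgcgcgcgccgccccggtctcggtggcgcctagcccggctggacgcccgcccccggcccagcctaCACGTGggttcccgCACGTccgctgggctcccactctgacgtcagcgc
Aldoc, chr11:78322823-78323072, plus strand: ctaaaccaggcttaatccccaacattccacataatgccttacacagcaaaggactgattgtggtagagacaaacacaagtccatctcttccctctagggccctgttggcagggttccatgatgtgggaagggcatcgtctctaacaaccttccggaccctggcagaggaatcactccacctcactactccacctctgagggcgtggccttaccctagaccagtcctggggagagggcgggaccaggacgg
Slc2a1 had 1 match, whose first base lay 36 bases before the start. Pgm2 had matches at 208 and 181, and Slc16a3 at 27 and 14 bases before it. Pgk1, not shown, had matches at 150 and 131 bases. Ldha had 5 matches, at 145, 144, 48, 47 and 34 bases, of which the overlapping pairs are the E boxes.

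Around the pathway, 56 related genes in 8 lists were examined, of which 38 were tested. With any agonist, or between agonists, 0 of the 38 passed limma's adjusted p of 0.05 in the fit with or without the replicate block. Between the sets 12 of 38 passed, 8 higher and 4 lower in set 1, beside 17.0%, 9.74% and 7.25% of all tested genes. Of the 38 genes 20 lay above 0, beside 49.5% of all tested genes, and the median was 0.050, beside -0.0034. With 1 array left out in turn, 5 of the 12, Myc, G6pc3, Got1, Gpd2 and Adpgk, passed in all 8 fits. Slc2a9, Emb, H6pd and Tigar passed in 2 of them, and Mlxip, Pgp and Mdh1 in none, with limma adjusted p-values of 0.0657 to 0.0774, 0.0801 to 0.15 and 0.095 to 0.125. The regulators gave 2 of 6 tested genes higher in set 1, beside 9.74% of all tested genes. Myc averaged 17.03 ± 0.090 in set 1 and 16.20 ± 0.089 in set 2 (SD, n = 4 arrays each, 1 per treatment), a difference of 0.83 (SE 0.0908, limma adjusted p = 0.00294). Mlxip, the partner of MLX also called MondoA, differed by 0.44 (SE 0.0992, limma adjusted p = 0.0252). Hif1a, which encodes the oxygen-regulated subunit of HIF-1, had 14.24, 14.63, 14.50 and 14.51 in set 1, against 14.59, 14.52, 14.60 and 14.66 in set 2 for the PPARα, PPARβ and PPARγ agonists and DMSO, and its sets overlapped at -0.12 (SE 0.108, limma adjusted p = 0.489). Txnip, whose protein restrains glucose uptake, was below set 2 on every set 1 array, at -0.26 (SE 0.0913, limma adjusted p = 0.0982), which missed the threshold.

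Among enzymes that oppose glycolysis or carry its NADH, 6 of 10 tested genes lay above 0, beside 49.5% of all tested genes. Of the 5 in the counter-acting list 3 passed, all higher in set 1, where 9.74% of all tested genes were. G6pc3, the glucose 6-phosphatase of most tissues, averaged 12.17 ± 0.087 in set 1 and 11.16 ± 0.13 in set 2, a difference of 1.01 (SE 0.0964, limma adjusted p = 0.00207). Tigar, which removes the activator of phosphofructokinase, differed by 0.48 (SE 0.114, limma adjusted p = 0.0304), and Pgp, a phosphatase of glycerol phosphate, by 0.38 (SE 0.101, limma adjusted p = 0.0425). Of 5 genes of the shuttles that carry cytosolic NADH into mitochondria 3 passed, beside 17.0% of all tested genes. Got1 at 0.72 (SE 0.108, limma adjusted p = 0.00675) and Gpd2 at 0.69 (SE 0.122, limma adjusted p = 0.0118) were higher in set 1. Mdh1 at -0.36 (SE 0.0915, limma adjusted p = 0.0386) was lower. Adpgk, an ADP-dependent kinase of glucose, was higher by 0.57 (SE 0.0935, limma adjusted p = 0.00887).

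Transport and pentose phosphate genes gave 3 more calls, all lower in set 1, where 7.25% of all tested genes passed as lower. They were Slc2a9, a urate and hexose transporter, at -0.69 (SE 0.144, limma adjusted p = 0.0192), Emb, a chaperone of the lactate carriers, at -0.55 (SE 0.113, limma adjusted p = 0.0192), and H6pd, the hexose dehydrogenase of the endoplasmic reticulum, at -0.49 (SE 0.108, limma adjusted p = 0.0232). Each was the only call of its list, among 4, 4 and 7 tested genes in that order. G6pdx, the entry enzyme of the pentose phosphate pathway, differed by -0.00060 and Bsg, the main chaperone of MCT1 and MCT4, by -0.017, both with overlapping sets. Of the 4 tested kinases and phosphatases of pyruvate dehydrogenase beside Pdk1 none passed, and Pdk4, a known PPAR target in other tissues, lay below the limit at 3.41 to 4.06.

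Among these related genes, Pdp2, a phosphatase that switches pyruvate dehydrogenase on, differed from DMSO by 0.3 or more in both sets with all 3 agonists, without passing the test. It had 6.27, 6.02, 6.11 and 6.67 in set 1, against 5.53, 6.05, 5.89 and 6.45 in set 2 for the PPARα, PPARβ and PPARγ agonists and DMSO. Its DMSO array was the highest of each set, and the mean differences were -0.66, -0.52 and -0.56 for the PPARα, PPARβ and PPARγ agonists, with limma adjusted p-values of 0.986, 0.797 and 0.806 with the replicate block. The agonists share the DMSO arrays, so a high or low DMSO array enters every one of these differences.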

How the data were processed

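Arrays were Clariom S Mouse, hybridised with biotin-labelled DNA from 100 ng of total RNA, per the labels. The deposited values are log2 expression values that the authors made with RMA in Expression Console, per the labels and the submitters' processing notes. Neither gives a version. RMA corrects background, equalises the distributions of the arrays and summarises the probes of a cluster, so a shift shared by most genes is removed. Coordinates are mm10, per the file headers. The deposited linear intensity of each array, whose log2 equalled these values to 1.5e-06, was not tested. Array medians lay between 5.64 and 5.72, and the number of arrays, not a depth, limits precision.

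Of 22206 clusters, 21371 name 1 gene, 832 several and 3 none. 20395 were matched to RefSeq, with 899 symbols updated, and the highest cluster was kept per gene. Genes at or above the 40th percentile of mean values, 4.8918, were tested. The 4 treatment means were fitted with limma 3.58.1 in R 4.3.3 (4 residual and 3.754 prior degrees of freedom), two-sided, with Benjamini-Hochberg adjustment over 12696 genes and a threshold of 0.05. The replicate block fit added the set (3 residual and 4.264 prior degrees of freedom), and set 1 was compared with set 2 in that fit. Only the replicate block fit and the set comparison treated arrays as paired by set, and the fit of the 4 treatment means alone did not. Pairing was used since the differences between the sets of any 2 treatments, which share a title prefix, correlated over the tested genes. The correlation was 0.496 to 0.55 in all 6 pairs of treatments. Whether an agonist acts differently in the sets cannot be tested, with 1 array of a treatment in each. The fits were run on simulated data with planted changes larger than any agonist difference of a pathway gene. That run does not show whether changes as small as those seen here would be found. Tables and plots used Python 3.11.15, pandas 2.3.3, numpy 2.4.6 and matplotlib 3.10.9. Promoter sequences are RefSeq's.

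The genes and related lists were chosen with earlier results of these data known. All 32 genes are named. Fuller detail went to those past the threshold, to the largest differences of one sign in both sets and to 1 gene per step, and related genes were named when past the threshold or at 0.3 or more in both sets, apart from a result not reported here. Alternatives were the block, limma's intensity trend with robust variances, other filters, the mean over clusters, subtracted array medians, the deposited value matrix, only the arrays compared, no treatment term and each array left out. Testing clusters of several genes too was added after seeing the data.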

Additional observations from a re-analysis of the deposited data

How the results depend on the processing

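No pathway gene passed in any agonist comparison under any alternative run, and no set call changed its sign. The count between the sets, 13, was 15 with the intensity trend and robust variances, 14 at the 60th percentile filter or with no treatment term and 10 with no filter, where Aldoa, Pgk1 and Tpi1 were lost, and 8 to 10 with an array left out. Genes called over the whole array, 1 for the PPARβ agonist against DMSO, were 3 with the replicate block, 10 with the block, trend and robust variances, 0 at the 60th percentile, 0 with only the 4 arrays compared and 0 to 1 with an array left out. Against the PPARα agonist, also 1, they were 2, 11, 0, 0 and 0, and against the PPARγ agonist, also 1, they were 2, 11, 0 at the 60th percentile and 0 to 2 with an array left out. For the PPARγ agonist against DMSO they were 2 with the block, trend and robust variances, beside 0. Between the sets they were 2156, 3238 with trend and robust variances, 2746 at the 60th percentile filter and 2486 with no treatment term. They were 1228 with no filter and 1053 to 1328 with an array left out. Fewer genes were tested at the 60th percentile filter, where Hk3, Pfkfb4 and Ldhb fell out. The replicate block changed no call of a pathway gene. The median difference of pathway genes ranged, with an array left out, from -0.22 to 0.22 for the PPARα agonist against DMSO, -0.094 to 0.27 for PPARβ, -0.22 to 0.17 for PPARγ, -0.098 to 0.28 for PPARβ against PPARα, -0.088 to 0.27 for PPARβ against PPARγ, -0.22 to 0.15 for PPARγ against PPARα and -0.40 to -0.26 between the sets. All 6 agonist medians thus took either sign with an array left out. Such a fit unbalances the sets, so the agonist medians then hold the set difference. Of single-gene results under alternatives, 41 lost and 6 gained the threshold, all between the sets. Another 400, all in agonist comparisons, moved by more than the SD of the gene's differences in the 2 sets. Of these 400, 394 were with an array left out. With 2 arrays per treatment the blocked intervals above are wide, and a small change of the pathway was not detectable.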
